A study of Mus musculus with 1753 samples.

Results

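The genes described here are 10 immediate early response genes, Fos, Fosb, Jun, Junb, Jund, Egr1, Nr4a1, Atf3, Ier2 and Zfp36, out of 46517 genes in a count table of single cells, fibroblasts and mural cells, of mouse skeletal muscle. They were chosen by name and found by matching Ensembl gene IDs to these symbols. All 10 were in the table and passed the filter on low counts in each comparison below. The table held 1753 labelled cells sequenced with Smart-seq2, a plate-based full-length method without molecular identifiers. A cell had between 46097 and 1055869 counts after removal of spike-in RNA, with a median of 258251. Levels are given as scaled counts, which are counts per 500000 counts of a cell, averaged over the cells of a class within a library.

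All cells came from male mice aged 10 to 20 weeks. The strain labels were C57BL6, PdgfrbGFP, Acta2GFP, Cspg4dsRED and PdgfraGFP - PdgfrbGFP pool. The reporter strains carry a fluorescent protein under the regulatory sequence of the gene in their name, had been backcrossed to C57Bl6/J, and were used to enrich cells by sorting. The study's methods describe a pool of soleus muscles of a Pdgfra H2BGFP and a PdgfrbGFP mouse, combined before dissociation, and do not say how the gastrocnemius of the pool was handled. Every muscle was dissociated at warm temperature with enzymes and repeated pipetting, with elastase added for Acta2GFP, and CD31-positive cells were left out of the sort. No sample without dissociation was included, so transcript present in the tissue and transcript made during dissociation cannot be told apart at any point below. The label of the extract names heart, whereas the tissue label of every cell names skeletal muscle.

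The cells stood on 8 plates, and plates split by muscle gave 9 libraries. A library is named here by its strain label and its plate or muscle. The 10 cluster labels are the authors' own clusters, which had been made from these counts. The study read them as endomysial fibroblasts (clusters 1, 3, 5, 6 and 8, 1116 cells), perimysial fibroblasts (clusters 2 and 9, 328 cells), paramysial fibroblasts (cluster 4, 60 cells), mural cells (cluster 7, 187 cells) and an Ngfr-expressing fibroblast group (cluster 10, 62 cells). The endomysium surrounds single muscle fibres and the perimysium surrounds bundles of them, while mural cells are the pericytes and smooth muscle cells of vessel walls. Since the members are among the genes that the clustering could use, the class tests describe the clusters and are not independent evidence about them.

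Marker genes went with the class names, except that perimysial markers were also high in paramysial cells. The summed level of 5 mural markers (Myh11, Notch3, Mcam, Rgs5 and Acta2) lay between 6610 and 10433 scaled counts in mural cells of each library and at 519 or lower elsewhere. The summed level of 4 fibroblast markers (Pdgfra, Col1a1, Dcn and Lum) was at most 708 in mural cells and at least 5547 elsewhere. Ngfr lay between 112 and 518 in cluster 10 and at 8.91 or lower in the other classes. Endothelial markers summed to 157 scaled counts in cluster 10 of the PdgfrbGFP undivided plate and 196 in mural cells of pool gastrocnemius, and immune markers to 254 in mural cells of the C57BL6 small plate. Elsewhere these sums were at most 21.3 and 54.1. Myogenic markers summed to at most 245 scaled counts in a library of paramysial cells, 182 of mural cells and 158 of endomysial cells. The part of these transcripts in the results was not tested.

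Immediate early genes are transcribed within minutes of a stimulus, such as a growth factor, depolarisation or mechanical stress, without new protein synthesis. Kinases activate factors that already sit in the nucleus, among them serum response factor at CArG boxes and CREB at the cAMP response element (CRE), and the transcripts are removed quickly. Fos and Jun proteins pair to form the AP-1 factor, and Atf3 belongs to the same bZIP class. Egr1 is a zinc finger factor, Nr4a1 an orphan nuclear receptor, Ier2 a nuclear protein induced by serum, and Zfp36 encodes tristetraprolin, which binds AU-rich elements and promotes mRNA decay. These genes are also known to be induced by enzymatic dissociation of tissue.

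Promoter sequence was available from RefSeq (build GRCm38.p6) for Fos, Fosb, Jun, Junb, Jund, Nr4a1, Atf3 and Zfp36. The CRE core TGACG, read on both strands in the 250 bases before the start of the gene, was in 5 of these 8 promoters and in 17.8% of 32851 mouse promoters. The 150 bases before the start are shown for these 5 members because they share an element of known stimulus response, with the core, or its reverse complement CGTCA, in capitals and the remaining bases in lower case.
Fos: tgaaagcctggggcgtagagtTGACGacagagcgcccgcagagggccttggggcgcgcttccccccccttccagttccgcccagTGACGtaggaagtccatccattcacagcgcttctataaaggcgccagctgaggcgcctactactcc
Fosb: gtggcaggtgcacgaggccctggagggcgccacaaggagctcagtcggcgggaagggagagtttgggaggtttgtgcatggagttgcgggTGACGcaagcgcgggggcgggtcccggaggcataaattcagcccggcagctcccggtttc
Junb: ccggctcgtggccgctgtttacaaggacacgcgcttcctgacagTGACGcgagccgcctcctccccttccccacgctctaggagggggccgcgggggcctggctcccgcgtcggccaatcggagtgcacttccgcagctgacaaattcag
Nr4a1: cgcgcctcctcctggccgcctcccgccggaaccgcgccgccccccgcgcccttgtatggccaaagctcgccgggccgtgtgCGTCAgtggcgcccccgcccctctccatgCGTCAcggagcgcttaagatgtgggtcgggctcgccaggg
Atf3: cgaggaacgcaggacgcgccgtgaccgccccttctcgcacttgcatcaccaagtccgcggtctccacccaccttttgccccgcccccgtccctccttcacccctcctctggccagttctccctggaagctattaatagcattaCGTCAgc
The windows, read 5′ to 3′ on the strand of the gene, are chr12:85473740-85473889 on the plus strand for Fos, chr7:19310046-19310195 on the minus strand for Fosb, chr8:84978749-84978898 on the minus strand for Junb, chr15:101266696-101266845 on the plus strand for Nr4a1 and chr1:191183334-191183483 on the minus strand for Atf3. The windows of Nr4a1 and Atf3 lie inside the span that GENCODE gives to the gene, upstream of a transcript with an inner start.

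The full palindrome TGACGTCA was in none of the 8 promoters and in 1.55% of all promoters, and the AP-1 motif TGANTCA in none and in 6.75%. The EGR motif GCGGGGGCG was in the promoters of Fosb, Nr4a1 and Zfp36, against 2.57% of all promoters. TATAAA on the strand of the gene was in that of Fos, against 7.59%, and the CArG box in that of Zfp36, against 1.47%. CRE cores were counted also within longer matches. The RefSeq start of Jund lies 1210 bases from the nearest transcript start in GENCODE, so its window may not be the promoter of the transcript that was counted. A match is a run of letters and not a measured site, and no binding was measured here.

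In the GRCm38 annotation, Fos lies on chromosome 12 at 85473890 to 85477273, Fosb on 7 at 19302696 to 19310051, Jun on 4 at 95049034 to 95052222, Junb on 8 at 84974484 to 84978718 and Jund on 8 at 70698949 to 70700616. Egr1 lies on 18 at 34859823 to 34864984, Nr4a1 on 15 at 101254269 to 101274795, Atf3 on 1 at 191170296 to 191218039, Ier2 on 8 at 84661331 to 84662852 and Zfp36 on 7 at 28376784 to 28380253. A gene on the opposite strand overlapped 5 members. These were Junos with Jun, Prdx2 with Junb, Gm11175 with Jund, Gm24748 with Atf3 and Gm44710 with Zfp36. The Smart-seq2 protocol does not mark strand, so reads in the overlaps cannot be assigned to one strand.

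Levels between members were compared only per kilobase of exon, in endomysial cells of 8 libraries. Fos was highest at 502 ± 175 scaled counts per kilobase (SD, n = 8 libraries here and in the next sentences), followed by Ier2 at 318 ± 88.7, Egr1 at 277 ± 70.1 and Junb at 268 ± 101. Jun stood at 178 ± 47.2, Zfp36 at 126 ± 42.1, Nr4a1 at 94.9 ± 76.1 and Jund at 71.5 ± 52.7. Atf3 at 28.9 ± 25.3 and Fosb at 12.5 ± 14.1 were the lowest. The lengths were not reduced for bases shared with opposite-strand genes (Jund 919, Zfp36 1274, Jun 689, Junb 351 and Atf3 108). The part of these overlaps in the order was not tested. The order spans the AP-1 family from its highest to its lowest member, and Ier2, Egr1 and Junb lay within each other's SD. A median of 6 of the 10 members reached 100 scaled counts in a cell. No member reached it in 29 cells (1.65%), and 8 or more did in 454 cells (25.9%). Together the members took 1.10% of all counts.

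The first question was where these genes stand in cluster 10, whose cells carry Ngfr. Averaged over libraries, cluster 10 had the highest mean level of all 10 clusters for each of the 10 members. Its 62 cells gave 3.49% of their counts to the members, against 1.09% in endomysial cells. Neither comparison was made within libraries, and clusters were present in different libraries. The Cspg4dsRED plate, which held 51 endomysial cells, had the highest share of any library, at 1.78%. In pool gastrocnemius mural cells had more Atf3 (138 scaled counts) and Nr4a1 (513) than cluster 10. The 62 cells of cluster 10 came from 4 libraries, 37 of them from the Cspg4dsRED plate, 8 from the PdgfrbGFP undivided plate, 10 from pool gastrocnemius and 7 from pool soleus. All 10 members were higher in cluster 10 than in endomysial cells within each of the 4 libraries. The test within libraries was the quasi-likelihood test of edgeR, adjusted by Benjamini-Hochberg over 12085 genes, and 4 members passed an adjusted p of 0.05, all of them higher in cluster 10. Among all genes tested, 0.621% were called higher and 0.298% lower. The median log2 fold change was 1.27 for the members and -0.48 for all genes.

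Fosb, an AP-1 subunit, had 204 scaled counts in cluster 10 of the Cspg4dsRED plate, 536 on the PdgfrbGFP undivided plate, 206 in pool gastrocnemius and 465 in pool soleus. The endomysial values in the same order were 7.29, 104, 43.3 and 55.6. No endomysial library of these reached a cluster 10 library, and the log2 fold change was 3.32 ± 0.46 (SE, adjusted p = 0.0207). Nr4a1 had 3963, 1827, 201 and 1027 scaled counts in cluster 10 of the same libraries. Its endomysial values were 907, 394, 120 and 130, so that the groups overlapped between libraries although each library differed in the same direction (2.33 ± 0.31, adjusted p = 0.0169). Fos was at 5444, 3697, 1190 and 2281 in cluster 10 and at 1961, 1396, 893 and 767 in endomysial cells (1.24 ± 0.20, adjusted p = 0.0383). Zfp36 was at 1735, 1384, 649 and 825 in cluster 10 and at 354, 542, 372 and 367 in endomysial cells (1.51 ± 0.26, adjusted p = 0.0465). The cluster 10 values of Zfp36 all lay above its endomysial values, whereas those of Fos overlapped.

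The other members were also higher in each library and did not pass the test. Atf3 had 453, 384, 34.0 and 195 scaled counts in cluster 10 against 33.4, 156, 27.9 and 29.7 in endomysial cells, a log2 fold change of 2.35 ± 0.55 with an adjusted p of 0.127. Jun had 2408, 1987, 939 and 957 against 613, 897, 614 and 521 (1.30 ± 0.23, adjusted p = 0.0525), and Junb had 2537, 1900, 832 and 1451 against 955, 836, 555 and 510 (1.21 ± 0.22, adjusted p = 0.0608). For both AP-1 genes pool gastrocnemius had the lowest cluster 10 value. Egr1 had a log2 fold change of 1.2 ± 0.26 (adjusted p = 0.0984), Ier2 of 1.06 ± 0.26 (adjusted p = 0.151) and Jund of 0.73 ± 0.28 (adjusted p = 0.355). Jund was the member with the smallest difference.

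The call of these members rested on few libraries. Without the Cspg4dsRED plate 2 members passed the test, without the PdgfrbGFP undivided plate or without pool soleus 0 did (with 9 and 10 at an unadjusted p under 0.05), and without pool gastrocnemius 4 did. In this order the fits called 0.698%, 0.274%, 0.389% and 0.408% of all genes. With at least 10 cells of each class required, which left the Cspg4dsRED plate and pool gastrocnemius, 0 members passed in edgeR (3 at an unadjusted p under 0.05). That fit called 0 of 12106 genes, so its count does not set the members apart from other genes. DESeq2 on all 4 libraries called 9 members and 12% of all genes, where edgeR called 0.918% of all genes. Summed heat shock transcripts were at 1894 to 6390 scaled counts in cluster 10 against 1735 to 2845 in endomysial cells, and 0 of 16 tested heat shock genes passed the test (edgeR, with 7 at an unadjusted p under 0.05 and 4 called by DESeq2). The part of these transcripts in the result was not tested. Within libraries, the median number of detected genes was 2316 in cluster 10 against 2256 in endomysial cells on the Cspg4dsRED plate, 4489.5 against 4534 on the PdgfrbGFP undivided plate, 5476.5 against 4899.5 in pool gastrocnemius and 6206 against 6067.5 in pool soleus.

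**Figure D1:**
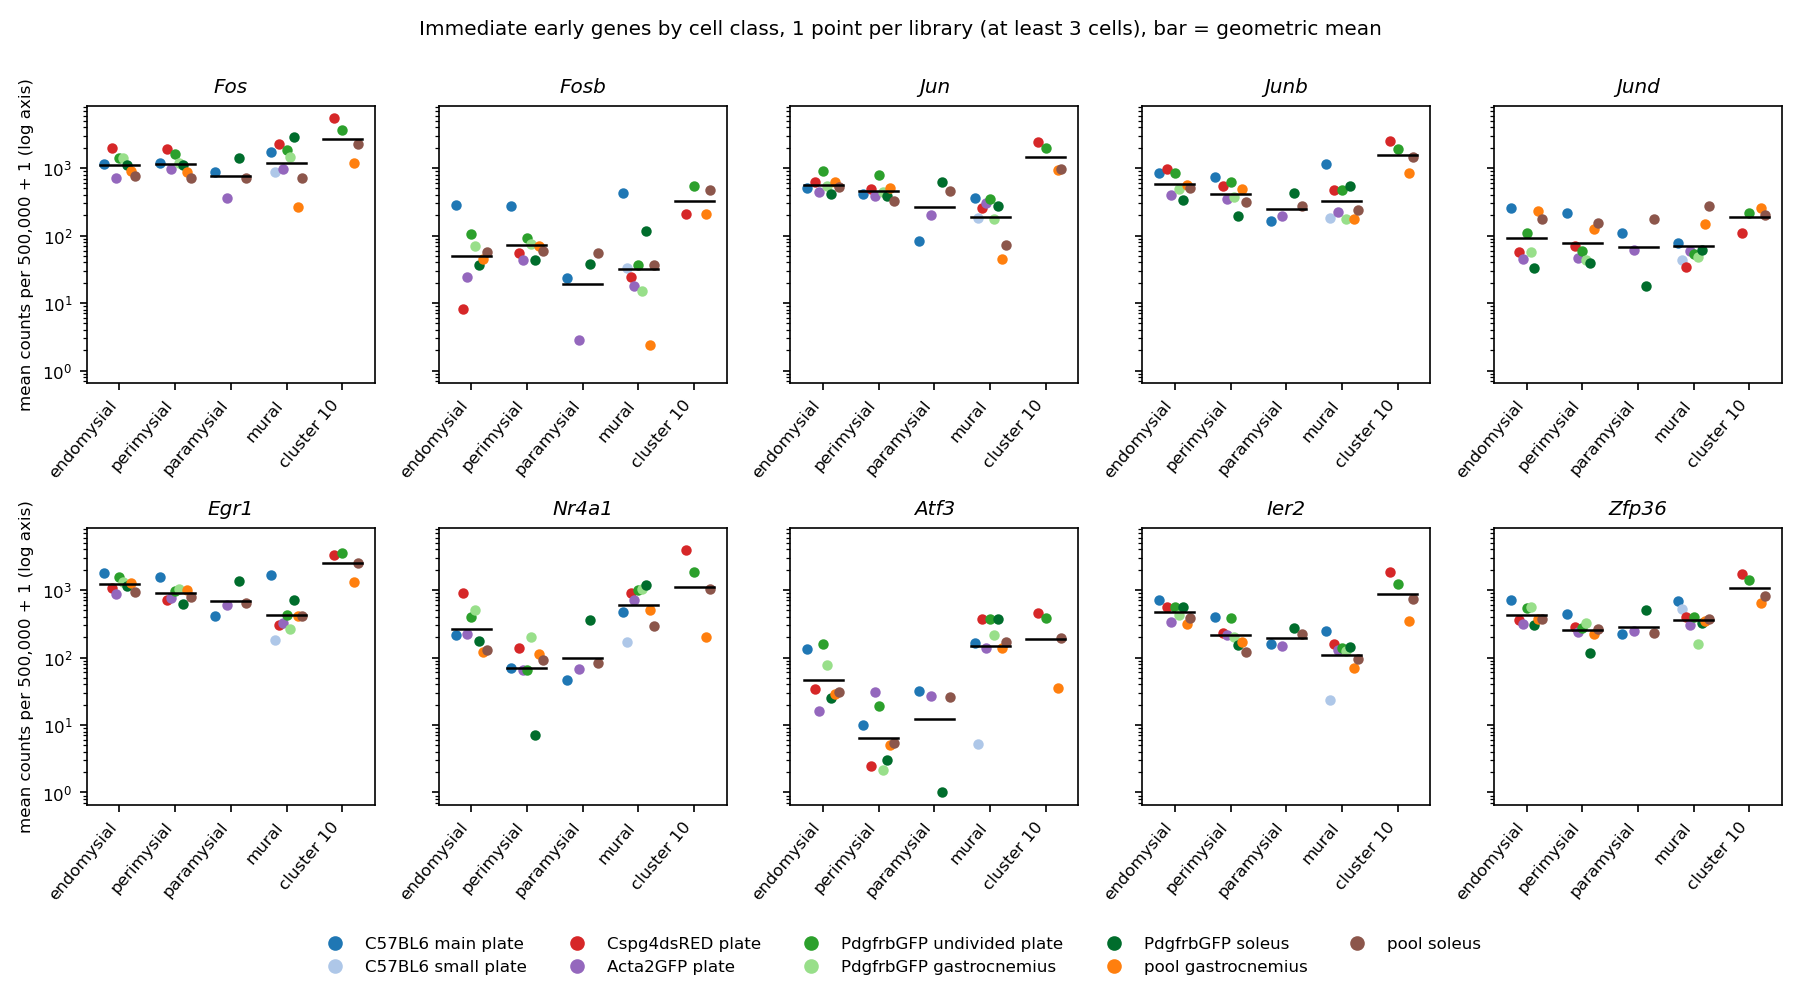
Level of each member by class, in scaled counts (counts per 500000) plus 1 on a log axis, with 1 point for each library that had at least 3 cells of the class and a bar for the geometric mean. The 4 cluster 10 libraries reached 5444 for Fos and 3963 for Nr4a1, while Atf3 in perimysial cells stayed at 29.9 or lower.

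Mural cells were compared with all fibroblasts within 9 libraries. Nr4a1 and Atf3 were higher in mural cells, and Jun, Egr1 and Ier2 were lower, so that 5 of 10 members passed the test. Among 12817 genes tested, 5.03% were called higher and 14.7% lower in mural cells. The median over all genes was -0.94 (-1.04 when only library size was used for scaling, -0.46 with strain as the unit, -0.39 with at least 10 cells and 0.03 without the block), and the median of the members was -0.41.

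Atf3, a stress-induced bZIP factor, ranged in mural cells from 4.30 scaled counts on the C57BL6 small plate over a median of 166 to 375 in PdgfrbGFP soleus. In fibroblasts it ranged from 0.779 on the C57BL6 small plate over 32.8 to 173 on the Cspg4dsRED plate. The ranges overlapped, yet mural cells were higher in 9 of 9 libraries, by 0.99 to 4.44 on the log2 scale, with a fitted difference of 2.41 ± 0.39 (SE, adjusted p = 0.000345). A mean of 33.8% ± 20.5 (SD, n = 9) of mural cells reached 100 scaled counts of Atf3, against 14.8% ± 11.1 (SD, n = 8) of endomysial cells. With each cell thinned to 40000 counts the shares were 33.1% and 15%.

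Nr4a1 ranged in mural cells from 170 on the C57BL6 small plate over 720 to 1176 in PdgfrbGFP soleus, and in fibroblasts from 9.82 over 157 to 1828 on the Cspg4dsRED plate. It was higher in mural cells of 8 of 9 libraries (2.11 ± 0.40, adjusted p = 0.00138). The exception was the Cspg4dsRED plate at -0.81, whose 107 fibroblasts include the 37 cells of cluster 10. Mural cells of that plate were at 900 scaled counts, no higher than its endomysial value given above. The difference on that plate without cluster 10 was not computed, and the cause of the exception was not tested. When cluster 10 was left out of the fibroblasts, a comparison added after the data had been seen, the log2 fold change was 2.20 (adjusted p = 0.000246) and the same 5 members passed the test. Nr4a1 lost its call when at least 10 cells were required (1.19, adjusted p = 0.218) and with strain as the unit (1.59, adjusted p = 0.0618).

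Ier2 moved the other way. It ranged in mural cells from 22.6 scaled counts on the C57BL6 small plate over 128 to 246 on the C57BL6 main plate, and in fibroblasts from 84.9 over 398 to 952. Mural cells were lower in 9 of 9 libraries, and the log2 fold change was -1.5 ± 0.25 (adjusted p = 0.000485). A mean of 32.7% of mural cells reached 100 scaled counts, against 77.9% of endomysial cells (32.5% and 78.4% after thinning). Egr1 ranged from 179 over 407 to 1675 in mural cells and from 745 over 1228 to 1767 in fibroblasts, with a log2 fold change of -1.13 ± 0.25 (adjusted p = 0.0037). The highest mural value of Egr1, on the C57BL6 main plate, came from 5 cells. Jun ranged from 43.6 over 257 to 358 in mural cells and from 135 over 504 to 1211 in fibroblasts (-1.29 ± 0.38, adjusted p = 0.0244). Jun lost its call when the Cspg4dsRED plate, PdgfrbGFP gastrocnemius, pool gastrocnemius or pool soleus was left out (adjusted p = 0.0623 to 0.101).

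The other AP-1 genes and Zfp36 did not pass the test between mural cells and fibroblasts. Fos was at 1449 ± 835 scaled counts in mural cells (SD, n = 9) and, among fibroblasts, at 1180 ± 412 in endomysial cells (SD, n = 8). Its log2 fold change in mural cells against all fibroblasts was 0.38 ± 0.20 (adjusted p = 0.208). Fosb was at -0.66 ± 0.65, Junb at -0.46 ± 0.26, Jund at -0.37 ± 0.33 and Zfp36 at 0.26 ± 0.44, with adjusted p-values of 0.251 to 0.738. Libraries differed in sign for each of them, with Fos higher in mural cells of 7 of 9 libraries and Junb of 2. Set against the median of -0.94, which moved with the setting as given above, Fos stood at 1.31, Nr4a1 at 3.05, Atf3 at 3.35, Jun at -0.35, Egr1 at -0.20 and Ier2 at -0.56. Mural cells had a median of 2.60% mitochondrial counts against 1.23% in endomysial cells. Its part in these differences was not tested.

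**Figure D2:**
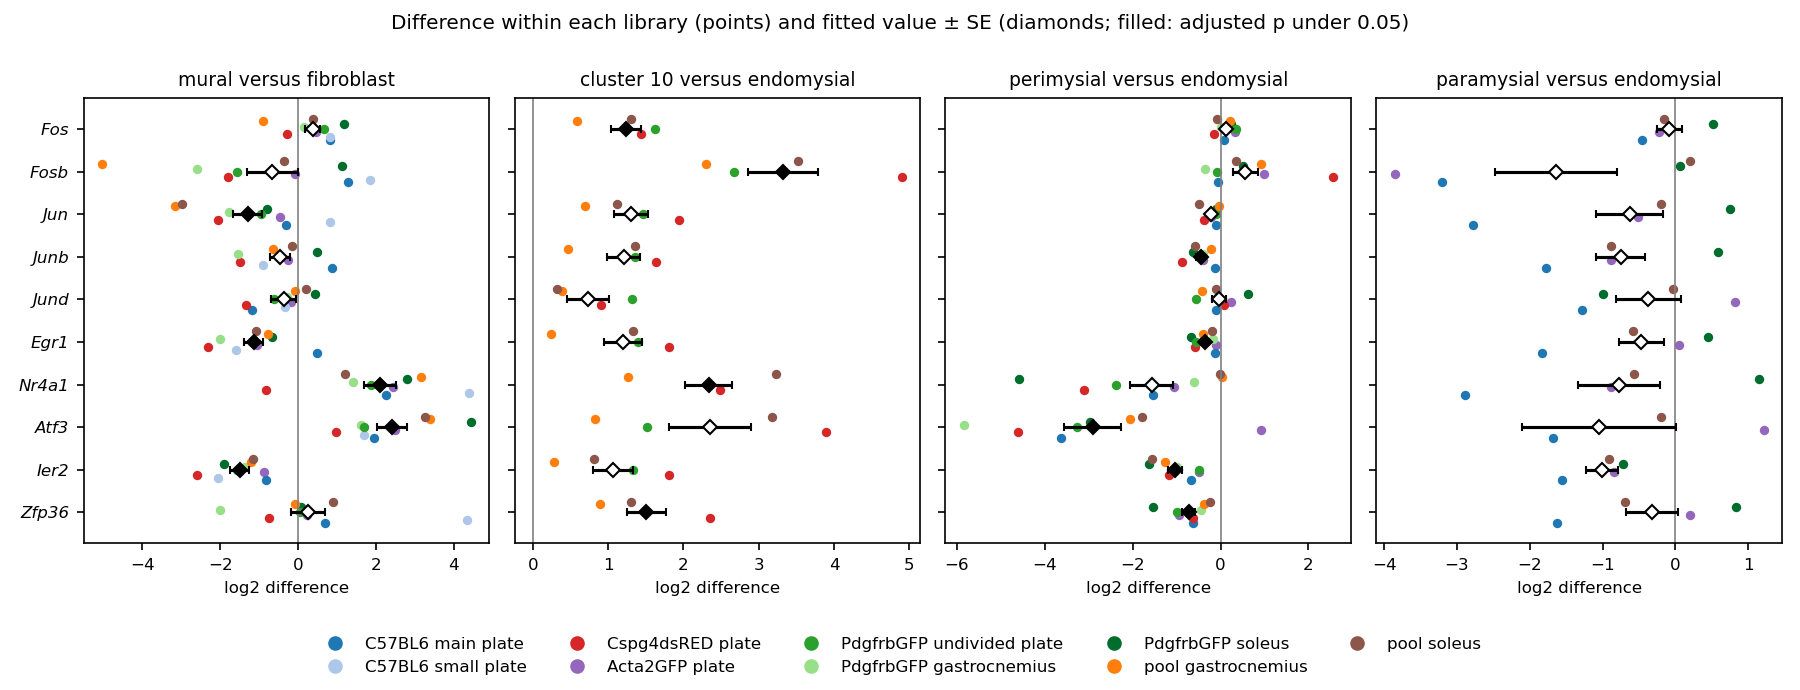
Difference of each member between the first and the second class within a library, as the log2 difference of normalised counts, with 1 point per library and a diamond with SE for the fitted value (filled where the adjusted p was under 0.05). Atf3 in paramysial cells of PdgfrbGFP soleus, with 0 counts, is left out, and cluster 10 lies above 0 for every member and library.

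Perimysial and endomysial fibroblasts were compared within 8 libraries. Of 10 members, 5 passed the test, and all of these were lower in perimysial cells (Atf3, Ier2, Zfp36, Junb and Egr1). Among 13521 genes tested, 6.18% were called lower and 3.99% higher. The median was -0.40 for the members and -0.25 for all genes (-0.39 when only library size was used for scaling). The median mitochondrial share of a cell was higher in perimysial than in endomysial cells of all 8 libraries, for example 1.74% against 1.19% on the C57BL6 main plate and 1.89% against 1.49% in PdgfrbGFP soleus, and its part in these differences was not tested. This comparison and those of paramysial cells and of cluster 10 share the endomysial cells.

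Atf3 was nearly absent from perimysial cells. It ranged there from 1.17 scaled counts in PdgfrbGFP gastrocnemius over 4.21 to 29.9 on the Acta2GFP plate, and in endomysial cells from 15.2 on the Acta2GFP plate over 31.5 to 156 on the PdgfrbGFP undivided plate. The Acta2GFP plate was the exception to the direction, with 0.91 on the log2 scale, and the fitted difference was -2.91 ± 0.65 (SE, adjusted p = 0.0128). A mean of 1.2% of perimysial cells reached 100 scaled counts of Atf3 (1.29% after thinning), against 14.8% of endomysial cells. Ier2 ranged from 121 over 210 to 399 in perimysial cells and from 318 over 492 to 706 in endomysial cells. It was lower in each library, and its log2 fold change was -1.03 ± 0.15 (adjusted p = 0.000952). Zfp36 ranged from 116 over 268 to 438 and from 301 over 370 to 710 (-0.72 ± 0.14, adjusted p = 0.00722). Both genes thus overlapped between the classes while each differed within libraries.

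Smaller differences were found for the AP-1 subunit Junb (-0.45 ± 0.10, adjusted p = 0.015) and for Egr1 (-0.35 ± 0.09, adjusted p = 0.0357). Egr1 lost its call in 6 of the 8 fits that left out a library (adjusted p = 0.0525 to 0.108). With strain as the unit, 2 members were called, beside 5.57% of all genes. Nr4a1, at 92.8 ± 57.6 scaled counts in perimysial and 333 ± 267 in endomysial cells (SD, n = 8), had a log2 fold change of -1.57 ± 0.48 with an adjusted p of 0.0661, and DESeq2 called it lower (adjusted p = 0.00404). Fos was at 0.12 ± 0.09, Fosb at 0.57 ± 0.29, Jun at -0.21 ± 0.09 and Jund at -0.04 ± 0.16. None of these 4 AP-1 genes passed the test.

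The perimysial clusters 9 and 2 were compared with each other in 5 libraries. By edgeR and by DESeq2, 0 of 10 members passed the test, and 1 member, Fosb, had an unadjusted p under 0.05. Among 10169 genes, 0.0885% were called higher and 0.138% lower in cluster 9. Fosb was lower in cluster 9 of 5 of 5 libraries, at -0.95 ± 0.35 (adjusted p = 0.66).

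Paramysial cells were compared with endomysial cells in 4 libraries, 3 of which had 6 or fewer paramysial cells. By edgeR and by DESeq2, 0 of 10 members passed the test, and 2 members, Ier2 and Junb, had an unadjusted p under 0.05. Among 13579 genes, 0.0663% were called higher and 0.0221% lower. Ier2 had 148 scaled counts on the Acta2GFP plate, 160 on the C57BL6 main plate, 271 in PdgfrbGFP soleus and 224 in pool soleus. Its endomysial values there were 340, 706, 552 and 389, above every paramysial value, and the log2 fold change was -1.01 ± 0.22 (adjusted p = 0.256). Atf3 had 25.5, 30.8, 0 and 25 scaled counts, the 0 coming from 3 cells. Junb was at -0.75 ± 0.33, Egr1 at -0.47 and Fos at -0.08 ± 0.18. The median was -0.69 for the members and -0.81 for all genes (-0.71 with RLE size factors).

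Within the endomysial class, clusters 1, 3, 6 and 8 differed in 8 of 10 members by a single F test over the clusters, against 10.9% of 14350 genes. The median span from the lowest to the highest cluster was 0.98 for the members and 1.08 for all genes, on the log2 scale. Jund and Atf3 did not pass (adjusted p = 0.312 and 0.447). Relative to cluster 3, the largest endomysial cluster, cluster 1 had log2 differences of -2.58 for Fosb, -0.99 for Fos, -0.98 for Egr1, -0.86 for Jun, -0.78 for Junb, -0.70 for Zfp36 and -0.69 for Ier2. Cluster 6 lay between clusters 1 and 3 for Fosb (-1.11), Fos (-0.34), Egr1 (-0.53), Junb (-0.32), Ier2 (-0.46) and Zfp36 (-0.25). The Fos genes, Junb, Egr1, Ier2 and Zfp36 thus had their lowest value in cluster 1, where Jun equalled its cluster 6 value.

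Nr4a1 followed another order. It was at -1.33 in cluster 1, 0.85 in cluster 6 and 0.80 in cluster 8 relative to cluster 3, a span of 2.18 on the log2 scale (adjusted p = 0.00793). Its mean levels were 81.4 ± 73.8 scaled counts in cluster 1, 172 ± 75.1 in cluster 3, 435 ± 285 in cluster 6 and 369 ± 270 in cluster 8 (SD over libraries). Atf3 had its highest endomysial value in cluster 1, at 0.91 relative to cluster 3, without passing the test. With strain as the unit 0 of the 10 members passed in edgeR, with 6 at an unadjusted p under 0.05, and without the PdgfrbGFP gastrocnemius library 3 did. These fits called 5.18% and 8.25% of all genes.

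Across all 10 clusters, neighbours in the order of levels were mostly within the spread between libraries. Of 90 gaps between neighbouring clusters, 5 exceeded the larger of the pair's SDs. Mural cells stood next to cluster 10 at the top for Fos, Nr4a1 and Atf3, and last for Jun, Jund, Egr1 and Ier2. Cluster 3 stood next to cluster 10 for Jun, Jund, Egr1 and Ier2, cluster 8 for Fosb and Junb, and cluster 5 for Zfp36.

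The plates were set apart from the clusters by looking at cluster 3 alone, which had at least 3 cells in 7 libraries. With 1 library for most plates there is no test of a plate, and strain and plate cannot be told apart except where a strain had more than 1 plate. The highest library exceeded the lowest by 1.77 times for Fos, 2.08 for Jun, 2.26 for Zfp36, 2.27 for Egr1 and 2.34 for Ier2. It did so by 3.33 times for Junb, 3.36 for Nr4a1, 5.90 for Atf3, 8.30 for Fosb and 9.82 for Jund. Jund and Fosb, both AP-1 subunits, were the members that differed most between libraries at a fixed cluster.

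Jund in cluster 3 had 27.6 scaled counts in PdgfrbGFP soleus, 89.6 in PdgfrbGFP gastrocnemius and 111 on the PdgfrbGFP undivided plate. It had 44.5 on the Acta2GFP plate, 191 in pool soleus, 269 in pool gastrocnemius and 271 on the C57BL6 main plate. The 2 pool libraries and the C57BL6 main plate were thus the high ones, for Jund. They were also the deepest, with medians of 501274 (pool soleus), 333478 (C57BL6 main plate) and 292340 (pool gastrocnemius) counts per cell. The PdgfrbGFP undivided plate followed at 277080, and the other libraries named here lay between 134244 and 179700. The part of depth in the spread of Jund was not tested. Fosb in cluster 3 ranged from 30.1 on the Acta2GFP plate over a median of 79.2 to 250 on the C57BL6 main plate, where the next library was at 115. The same plate was highest for Fosb in endomysial (283), perimysial (271) and mural cells (429). In endomysial cells 63.0% reached 100 scaled counts of Fosb on the C57BL6 main plate, and between 1.96% and 31.5% in the other libraries.

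**Figure D3:**
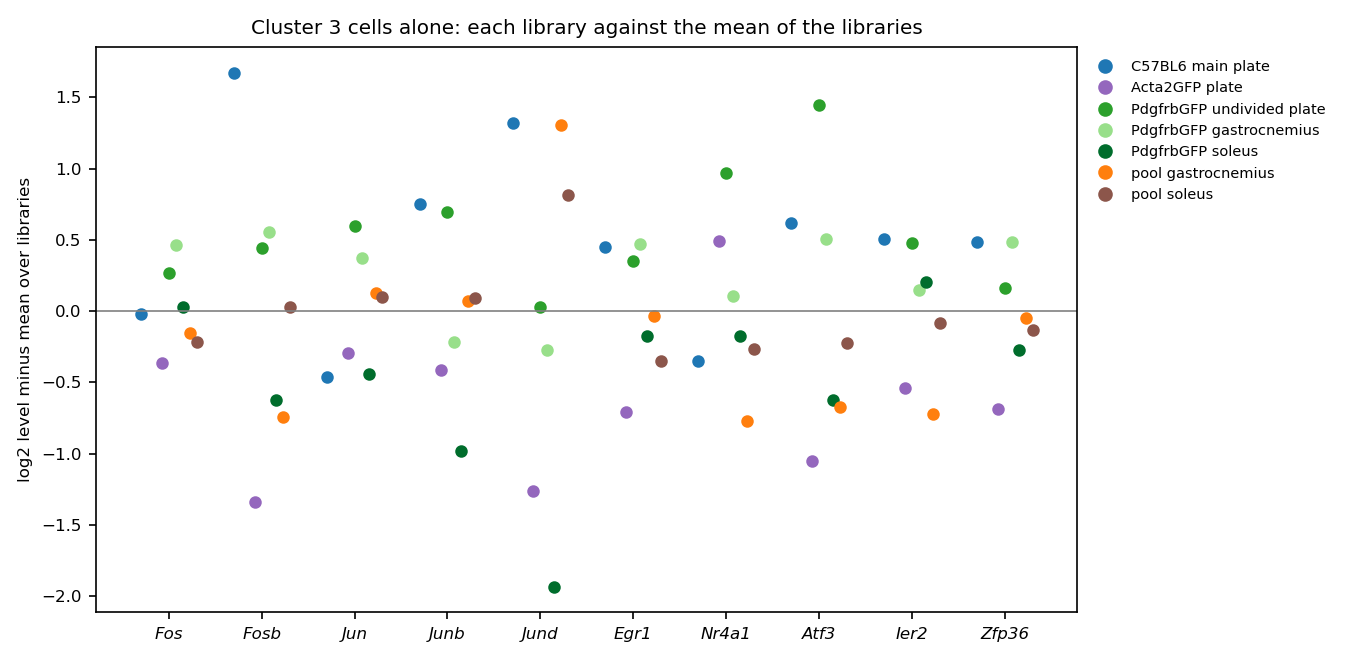
Level of each member (x axis) in cells of cluster 3, as the log2 level of a library minus the mean over the 7 libraries (y axis), with 1 point per library. In scaled counts Jund spreads from 27.6 to 271 and Fosb from 30.1 to 250, while Fos keeps within 1.77 times.

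Within the PdgfrbGFP strain, the undivided plate and the plate that held both muscles also differed in cluster 3. Atf3 was at 108 scaled counts on the undivided plate, 55.7 in gastrocnemius and 24.9 in soleus. Nr4a1 was at 314, 172 and 142, and Junb at 918, 486 and 286 in the same order. The undivided plate was the highest of the 3 libraries for these genes and for Jun, Jund and Ier2. For Fos (1515 in gastrocnemius, 1321 on the undivided plate), Fosb (115 and 106), Egr1 (1999 and 1835) and Zfp36 (571 and 457) gastrocnemius was the highest. The labels do not say whether the plates share a mouse.

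The share of the variation between cells that clusters and libraries held was computed for each gene from log2 levels (scaled counts plus a pseudocount of 1). The cluster added a median of 8.64% over the members after the library was accounted for, and the library added 4.93% after the cluster. Within endomysial clusters 1, 3, 6 and 8 alone the order turned, with 3.20% for the cluster and 6.98% for the library. Over 13514 genes the medians were 1.37% and 1.90%, and over the 904 genes with a mean of at least 100 scaled counts they were 8.03% and 4.56%. Egr1 had the largest cluster share at 14.4%, followed by Nr4a1 and Ier2 at 13.1% each, Atf3 at 11.1% and Jun at 10.3%. Jund went the other way, with 2.84% for the cluster and 19% for the library, and Fosb had 6.66% and 14%. Their library shares stood at the percentiles 97.7 and 94.7 among the 904 genes. Depth differed between libraries and was corrected for only by the scaling, which leaves cells without a count of a gene unchanged. Outside the C57BL6 small plate, fibroblasts without a Jund count ranged from 1.14% in pool soleus to 44.9% on the Cspg4dsRED plate. These were the libraries with the highest and the lowest median depth (501274 and 121646 counts). The part of depth in the library shares of single members was not tested. For Fos the values were 4.17% and 4.07%, so that most of its variation lay between cells of the same library and cluster.

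**Figure D4:**
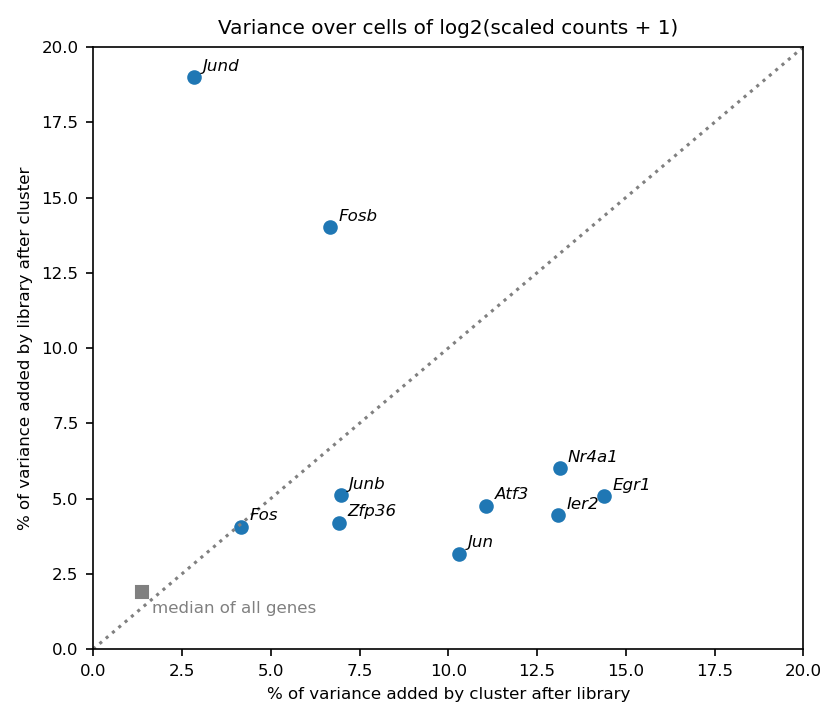
Percent of the variance between cells added by cluster after library (x axis) and by library after cluster (y axis), with 1 point for each member, a square for the median of all genes and a dotted line where both are equal. Jund at 19% and Fosb at 14% stand high on the library axis, and Egr1 at 14.4% lies farthest along the cluster axis.

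Soleus, a postural muscle, and gastrocnemius were compared in endomysial cells with 2 pairs, PdgfrbGFP on a single plate and the pool on separate plates. By edgeR 0 of 16337 genes were called in either direction (0% higher and 0% lower), 807 genes had an unadjusted p under 0.05, and DESeq2 called 115. Of the members 0 passed in either tool, and 2 (Jun and Jund) had an unadjusted p under 0.05. Jund was at -0.90 in the PdgfrbGFP pair and -0.41 in the pool pair, and Jun at -0.59 and -0.34. Atf3 was at -1.97 and -0.15, Zfp36 at -1.09 and -0.07, and Junb at -0.78 and -0.20. Nr4a1 was at -1.51 and 0.23 and Fosb at -1.34 and 0.10, so that the pairs differed in sign for both. Each adjusted p was 0.967. The PdgfrbGFP differences were the larger ones except for Egr1 (-0.27 and -0.48) and Ier2 (0.18 and 0.22).

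The members also varied together between cells of the same library and cluster. Correlations were taken over 1720 cells after removing library and cluster means and the linear part of depth and of the number of detected genes, and they describe cells, which are not replicates. The median Pearson r over 45 pairs of members was 0.29. It was highest for Fos with Egr1 (0.61), Junb with Egr1 (0.58), Fos with Junb (0.54) and Fos with Jun (0.48), and lowest for Jund with Nr4a1 (0.08). Egr1 and Fos had the highest mean r with the other members at 0.41 each, while Atf3 had 0.20 and Jund 0.18. Fos with Egr1 ranged from 0.51 to 0.72 over the libraries.

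**Figure D5:**
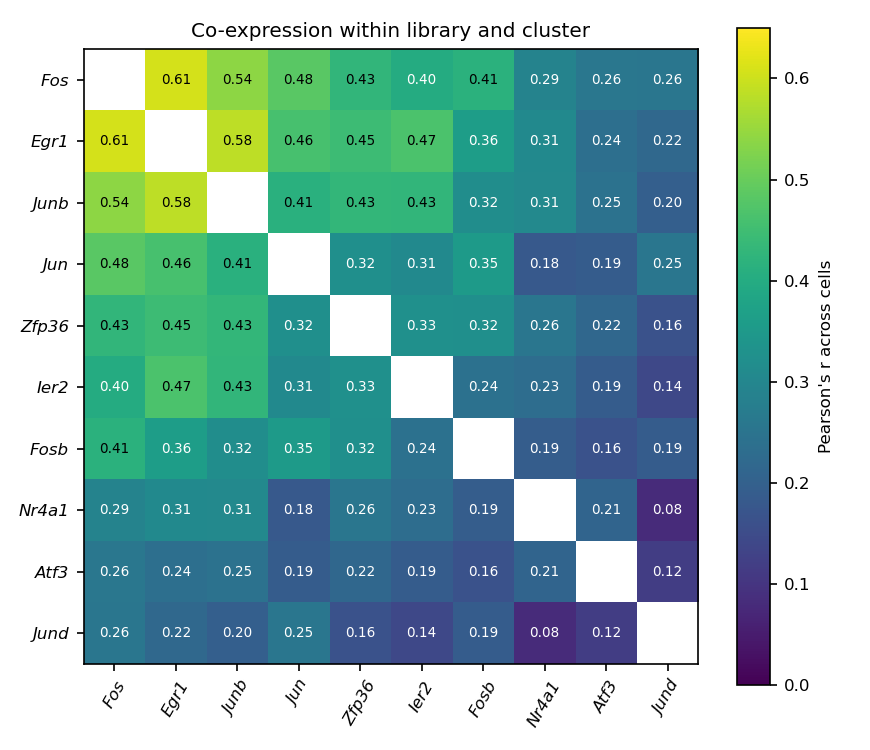
Pearson correlation of each pair of members across 1720 cells, within library and cluster and after removal of depth. Fos with Egr1 has the highest value at 0.61, and the values of Jund and Atf3 are low with most members.

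Genes outside the set were ranked by their correlation with the mean of the members. Among 11217 genes the median r was -0.00 and the 99th percentile 0.09. Among the 12 genes most alike were Junos (0.56), Btg2 (0.44), Socs3 (0.42), Gm11175 (0.38), Dusp1 (0.37), Cxcl1 (0.32), Ppp1r15a (0.32), Gm20481 (0.31), Gm10382 (0.30), Hspa1a (0.30) and Cebpd (0.28). Junos and Gm11175 overlap Jun and Jund on the opposite strand, and their reads cannot be told apart from those of these members. Btg2 encodes an antiproliferative protein, Socs3 an inhibitor of cytokine signalling, and Dusp1 a phosphatase of MAP kinases. Of the 50 genes most alike, 19 were on a list of 45 other immediate early genes.

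From that list, 38 genes were tested in each of the following comparisons. In mural cells 4 were higher and 9 lower than in fibroblasts, where 5.03% and 14.7% of all genes were. Hes1 (1.55), Btg2 (1.5) and Ppp1r15a (1.15) had the largest increases, and Egr2 (-5.28), Maff (-4.93) and Klf4 (-4.45) the largest decreases. In perimysial cells 1 was higher, the nuclear receptor Nr4a2 (3.24), and 10 were lower than in endomysial cells, led by Myc (-2.29), Irf1 (-2.17) and Fosl2 (-1.99), where 3.99% and 6.18% of all genes were. Nr4a2 thus had the opposite sign to the member Nr4a1, whose own difference did not pass the test. In cluster 10 the phosphatase Dusp6 (3.40) and Btg2 (2.87) were higher, as were 0.621% of all genes. Within the endomysial clusters 16 of 38 differed, against 10.9% of all genes.

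Early cytokines and matrix genes were lower in mural cells in 5 of 8 cases, led by the hyaluronan synthases Has2 (-6.71) and Has1 (-6.48) and by Ccl2 (-5.96). In perimysial cells 5 of 9 were lower, with Has1 at -5.72, Ccl7 at -4.40 and Lif at -3.96. In cluster 10 the chemokine Cxcl1 was higher (2.37), as 1 of 9 tested. Of the 16 heat shock genes, 1 was higher in mural cells, Hspb1 (2.10), and 1 lower, Hspa5 (-0.97). Hspb8 (-3.55) and Hspb1 (-0.75) were lower in perimysial cells. Over all genes 5.03% were higher and 14.7% lower in mural cells, 6.18% lower in perimysial cells and 0.621% higher in cluster 10. Of 18 upstream factors, such as serum response factor and CREB, 2 were lower in mural cells, a smaller share than the 14.7% of all genes, and 0 passed in perimysial cells (edgeR, with 1 at an unadjusted p under 0.05 and 1 called by DESeq2) or in cluster 10 (edgeR, with 1 at an unadjusted p under 0.05 and 1 called by DESeq2). Of 13 other bZIP partners 1 was lower in mural cells, also below the share of all genes.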

How the data were processed

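Single cells were sorted from dissociated muscle into plates and sequenced with Smart-seq2. Per the study's methods, the authors mapped reads to GRCm38 (mm10) with TopHat2 and Bowtie and counted them per gene with featureCounts. The annotation release and the strand setting are not given in the sources used here. The deposited table holds raw counts per gene and cell. Spike-in rows (92, with 1.31% of the counts) entered neither library sizes nor tests, and 1 deposited column, which matched no label, was not used. Doublets had been limited by the authors through the sorting gates and an upper bound on genes per cell, and no caller was run here. Of the 46517 gene IDs, 46005 matched a symbol in GENCODE M21, from which positions and exon lengths were taken.

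Members and gene lists were chosen with earlier results of these data known. Named genes were all 10 members, the 3 called genes with the largest change in each direction of each list and comparison, and the 12 genes most alike, of which 1 is not reported here. Counts were summed over the cells of a class within a library (at least 3 cells) and tested with edgeR 4.0.16 (R 4.3.3) by the quasi-likelihood test, with TMM normalization, filterByExpr, the library as a block and Benjamini-Hochberg adjustment over all genes tested, at an adjusted p under 0.05. Libraries pair the classes because both came from the same sorted plate. The labels name no animal, so libraries may share a mouse. The block takes up differences in level between libraries, so p-values measure only how the class difference varied from library to library. Alternatives were DESeq2 1.42.0, RLE size factors, library size only, no filter, no block, cells weighted alike, at least 10 cells, strain as the unit and each library left out. Shares of variance and correlations were computed with Python 3.11.15, numpy 2.4.6 and pandas 2.3.3 on log2 of scaled counts plus 1. Reads without molecular identifiers are not independent molecules.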

Additional observations from a re-analysis of the deposited data

Results flagged for a closer look

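Levels in 50 groups, each a member in a class with at least 4 libraries, were searched for a library far from the rest on the log2 scale by Dixon's ratio, and 5 were found. Chance gives about 1 in 20 groups. Atf3 in mural cells of the C57BL6 small plate was at 4.30 scaled counts (4 cells), where the nearest of the 9 libraries, the Acta2GFP plate, was at 137. Atf3 in paramysial cells of PdgfrbGFP soleus was at 0 (3 cells), where the nearest of the 4 libraries was at 25. In the same 3 cells Zfp36 was at 508, and the nearest library was at 245. Nr4a1 in perimysial cells of PdgfrbGFP soleus was at 6.13 (16 cells), and the nearest of the 8 libraries was at 63.4. Fosb in perimysial cells of the C57BL6 main plate was at 271 (150 cells), and the nearest library was at 90.2. The first 3 of these values thus come from 3 or 4 cells, whereas the last comes from the largest perimysial library. The cause was not tested in any of them.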

How the results depend on the processing

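No called member changed sign under any alternative. Of the single-member values recomputed, 470 of those under other settings and 330 of those with a library left out kept their side of the threshold. Calls were lost by 46 and 37 and gained by 14 and 3. The kept values include members that were never called. In 3 comparisons no member was called, and these gave 80 and 50 (cluster 9 against cluster 2), 70 and 40 (paramysial cells) and 60 (soleus, other settings only). For cluster 10, with 4 members called, 11 calls were lost under other settings and 12 with a library left out. A change of sign where neither fit called the member was counted as kept. The value over the endomysial clusters is a span and has no sign. Libraries pair the classes. Without the replicate block, 2 members instead of 5 were called for mural against fibroblast cells, 2 instead of 5 for perimysial against endomysial cells, 1 instead of 4 for cluster 10 and 1 instead of 8 over endomysial clusters 1, 3, 6 and 8. Those fits called 17%, 7.68%, 1.47% and 8.53% of all genes, against 19.7%, 10.2%, 0.918% and 10.9% in the main fits. With strain as the unit the member counts in the same order were 3, 2, 1 and 0, beside 15.4%, 5.57%, 0.442% and 5.18% of all genes. For cluster 10 the member counts were 7 with no filter on low counts, 9 with DESeq2 and 0 with at least 10 cells. Of all genes 0.705%, 12% and 0% were called there. With each library left out in turn, 4 to 5 members were called for mural cells, 4 to 5 for perimysial cells, 0 to 4 for cluster 10 and 3 to 7 over the endomysial clusters. In the same order 16% to 22.8%, 7.58% to 12%, 0.274% to 0.698% and 7.91% to 10.2% of all genes were called. The cause was not tested.

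Single members also lost calls. In mural cells Egr1 had an adjusted p of 0.05 with DESeq2 and 0.0502 with strain as the unit (edgeR). In perimysial cells the adjusted p was 0.0945 for Junb and 0.11 for Egr1 with cells weighted alike, and with strain as the unit 0.0862 for Junb and 0.145 for Atf3. Nr4a1 in perimysial cells gained a call with cells weighted alike (0.0284), library size only (0.0448) and without pool gastrocnemius (0.0491).

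Restricted to endomysial clusters 1, 3, 6 and 8, the cluster added 3.20% and the library 6.98% of the variance (median of the members). With a library left out the medians ranged from 6.41% to 9.51% for the cluster and from 3.82% to 5.54% for the library. At a limit of 20 scaled counts, 86.0% of endomysial cells reached it for the median member, against 74.6% at 100. The median pair correlation stayed within 0.28 to 0.30 in the settings tried.

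Counts over all genes moved more. They were 2524 for mural cells (3801 without the filter, 5059 with DESeq2), 1375 for perimysial cells (2883 with DESeq2, 787 with strain as the unit) and 12 for paramysial cells (33 without the filter, 6 without the block, 466 with DESeq2, 7 to 52 with a library left out). They were 111 for cluster 10 (192 without the filter, 178 without the block, 1453 with DESeq2, 55 with strain as the unit, 0 with at least 10 cells, 33 to 104 with a library left out). For cluster 9 against cluster 2 they were 23 (161, 491 and 38 without the filter, with DESeq2 and with library size only, 109 with strain as the unit, 81 with at least 10 cells, 8 to 13 with a library left out). Over the endomysial clusters they were 1558 (851 with strain as the unit). The median of all genes for cluster 10 was -0.48, -0.39 with RLE size factors and -0.65 with library size only. Leaving out a strain in the soleus comparison left 1 pair and no test, and only pool soleus had 10 cells for the paramysial comparison, so these were not run. Cells per library were 3 to 45 for the paramysial and 7 to 37 for the cluster 10 values.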
